A study of Mus musculus with 12 samples.

Results

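The 57 genes described here code for factors that start and lengthen proteins on the ribosome, with a few relatives that carry the same kind of symbol. A gene was a member when the only symbol of its array feature in the platform annotation began with Eif1 to Eif6, Eef1 or Eef2, and pseudogenes were left out. The members were 57 of the 30142 genes measured by a feature with 1 symbol. The rule used names and levels, not differences between samples. Features that carry several symbols were not used, so Eif4a2, Eif4a3 and Eif5 are not described, and Eif4g1, Eif2s1, Eif1 and Eif3g were not analysed here.

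Laser capture of mouse hippocampus gave 4 kinds of piece: the stratum pyramidale of CA1 and of CA2, where the pyramidal neurons have their cell bodies, and the stratum radiatum of each field, which their apical dendrites cross. All tissue was from 3 male Amigo2-EGFP mice on C57BL/6J, aged 6 to 8 weeks, so every group carries the reporter, which is known to mark CA2. Each group holds 3 Affymetrix whole-transcriptome arrays, numbered 1 to 3 and listed in that order below, and 5 to 7 ng of RNA was amplified for each. The labels do not say in words that a number is a mouse, so p-values measure the spread between these arrays. Values are log2 levels after the authors' RMA normalization, on which a difference of 1 is 2-fold.

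Translation begins when the cap of an mRNA is bound by eIF4E, which with the scaffold eIF4G and the helicase eIF4A recruits the small ribosomal subunit. That subunit carries eIF1, eIF1A, eIF3 and the initiator tRNA delivered by eIF2, which eIF2B must recharge with GTP after each round. eEF1A then brings each amino acid and eEF2 moves the ribosome along by a codon. In hippocampal neurons part of this work takes place in dendrites, away from the cell body, and mRNAs of several of these factors begin with a run of pyrimidines, the terminal oligopyrimidine (TOP) motif, whose translation follows mTORC1.

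The dendritic layer also holds glia, vessels and interneurons. Markers were measured for astrocytes (12), microglia (11), endothelium (12), mural cells (8), oligodendrocytes (11) and oligodendrocyte precursors (6). All of these were called higher in the dendritic than in the cell body layer of both fields. Of 12 interneuron markers, 9 were higher and 2 lower in CA1, and 8 higher and 1 lower in CA2. Of 7 pyramidal neuron markers, 2 were higher and 3 lower in CA1, and 2 higher and 5 lower in CA2. The mean log2 level of the astrocyte markers ran from 7.54 to 7.57 in the cell body and from 9.52 to 9.56 in the dendritic layer of CA1, and from 7.83 to 7.89 and 9.58 to 9.70 in CA2. The same ranges for microglia were 7.00 to 7.07 and 9.07 to 9.20 in CA1, and 7.10 to 7.14 and 8.73 to 8.76 in CA2. Markers of CA2 neurons averaged 9.73 to 9.90 on the CA2 cell body arrays against 7.24 to 7.34 in the CA1 cell body layer, and CA1 neuron markers 9.50 to 9.62 in CA1 against 7.96 to 8.21 in CA2, as labelled. The part of these other cells in the layer differences below was not tested, and in such bulk pieces fewer cells of a type and less RNA per cell cannot be told apart. On 3 CA2 arrays (cell body 1, dendritic 2 and 3) the median of 28 oocyte genes was 7.28 to 7.36, against 5.35 to 5.83 on the other 9. Results for CA2 are therefore also given without these 3 arrays, which leaves 2 cell body arrays and 1 dendritic array whose spread is taken from the other groups. No array number is then left in both layers of CA2. The fit allows for the array number, so these CA2 differences include an offset between numbers that comes mainly from the CA1 arrays.

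In CA1, 37 of the 57 members passed the test between layers (limma, Benjamini-Hochberg adjusted p under 0.05 over all genes), where 46.9% of all genes did. Of these, 11 were higher in the dendritic layer and 26 lower, where 28.3% and 18.5% of all genes were. In CA2, 35 members passed, where 34% of all genes did, with 10 higher and 25 lower (16.2% and 17.8% of all genes). Fewer members, and fewer of all genes, passed in CA2 without the 3 arrays with oocyte transcripts. The median member difference, dendritic minus cell body layer, was -0.17 in CA1 and -0.18 in CA2, while the median over all genes was 0.12 and -0.03.

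Most members are bright features, 56 of 57 lying above the median feature level of 5.76, and the excess of lower calls was shared with other genes of their level. Among the 5636 genes within the middle range of member levels, from 7.90 to 9.90, 71.7% were called in CA1, 48% lower and 23.7% higher, and 67.2% in CA2, 43.1% lower and 24% higher. The members stood at 45.6% lower and 19.3% higher in CA1 and at 43.9% lower and 17.5% higher in CA2. Of the 29 members inside that range, 20 were called in CA1, 16 lower and 4 higher, and 19 in CA2, 15 lower and 4 higher. Of these 29, 55.2% were lower and 13.8% higher in CA1, and 51.7% and 13.8% in CA2. They were lower somewhat more often, and higher less often, than genes of like level, and this was not tested. The shares of all 57 members lie nearer, though these include members outside the range.

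**Figure D1:**
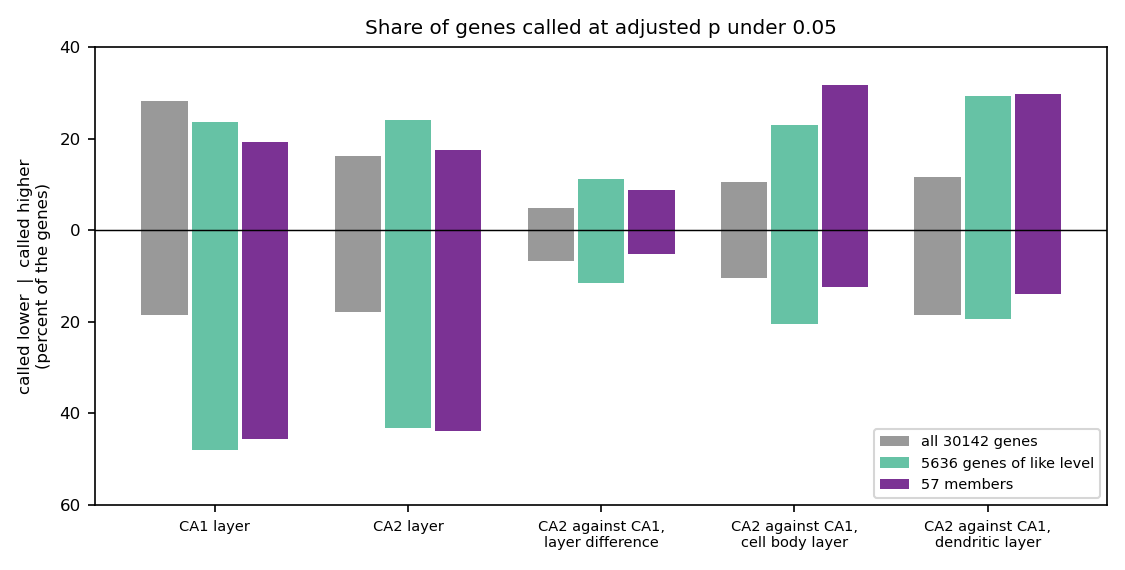
Percent of genes called higher (above 0) and lower (below 0) in 5 comparisons, for all 30142 genes (grey), the 5636 genes of like level (green) and the 57 members (purple). In both layer comparisons the purple bars for lower calls lie close to the green ones, with 45.6% of members called lower in CA1 and 43.9% in CA2. The purple bars for higher calls are shorter than the green ones there.

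A total of 29 members (50.9%) were called in the same direction in both fields and 0 in opposite directions, where 24.6% and 1.17% of all genes were. Among genes of like level 52.6% were called in the same direction, beside 16 of the 29 members in that range, so the members' share lay near that of genes of their level. The mean differences of CA1 and CA2 come from different arrays. Their calls are not separate, because the same fit over all arrays gave the spread for both, and the fields share the mice. Higher in the dendritic layer of both were 10: Eef1a1, Eef1b2, Eef1d, Eef1g, Eef2, Eif3f, Eif3h, Eif4ebp1, Eif4ebp2 and Eif2ak2. Lower in both were 19, among them Eif1a, Eif1b, Eif2b1, Eif2b3, Eif2b5, Eif4a1, Eif4g3, Eif5a and Eif5b. A further 7 were called lower in CA1 alone (Eif2d, Eif2s2, Eif2s3y, Eif3a, Eif3d, Eif3m and Eif4e) and 6 in CA2 alone (Eef1a2, Eef2k, Eif2b2, Eif4e2, Eif5a2 and Eif6), and whether such a gene differs between the fields is answered only by the test of that difference given further on. The remaining 14 with no call in either field included Eif4b, Eif4h, Eif4g2, Eif3i, Eif3k, Eif3l and Eif2s3x, and Eif2c5 was called higher in CA1 alone.

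**Figure D2:**
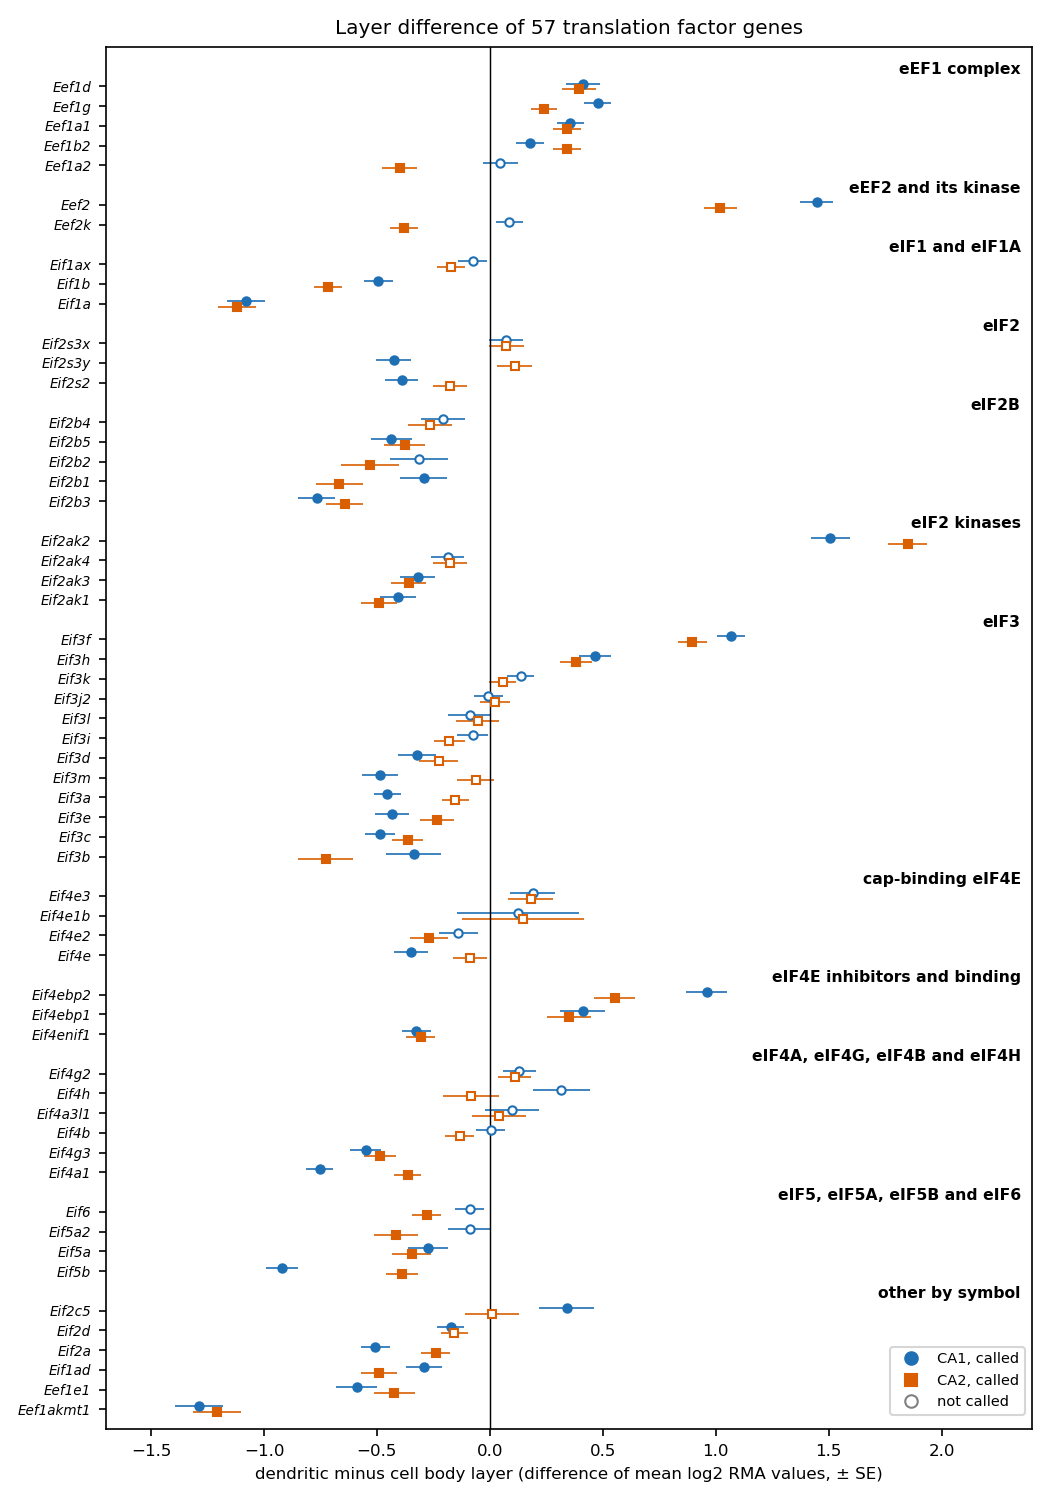
Dendritic minus cell body difference of each of the 57 members (x axis, log2, bars are ± 1 SE of the fit), grouped by role, in CA1 (blue circles) and CA2 (orange squares); open symbols were not called. Eif2ak2, Eef2, Eif3f and Eif4ebp2 lie farthest to the right in both fields, and Eef1akmt1 and Eif1a farthest to the left.

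Most genes of the elongation factors were called higher in the dendritic layer. Of the 6 genes of eEF1 and eEF2, 5 were higher in the dendritic layer in CA1 and 0 lower (median difference 0.39), and 5 were higher and 1 lower in CA2 (median 0.34). Of the other 51 members, 6 were higher and 26 lower in CA1 (median -0.27), and 5 higher and 24 lower in CA2 (median -0.23). Of all genes 28.3% were called higher and 18.5% lower in CA1, and 16.2% and 17.8% in CA2. Genes of like level stood at 23.7% higher and 48% lower in CA1, and at 24% and 43.1% in CA2. Under the other settings tried, 4 to 5 elongation factors were called higher in CA1 and 3 to 5 in CA2, the lowest count in CA2 being that without the arrays with oocyte transcripts. No test sets these groups of genes against each other.

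Eef2, the translocase, gave 10.90, 10.69 and 10.82 in the CA1 cell body layer and 12.28, 12.21 and 12.26 in the dendritic layer beside it. Its values in CA2 were 11.01, 11.03 and 11.16 in the cell body layer and 12.02, 12.12 and 12.12 in the dendritic layer. All 6 dendritic arrays lay above all 6 cell body arrays, a difference of 1.45 ± 0.07 (SE) or 2.73-fold in CA1 (limma adjusted p = 2.03e-07) and of 1.02 ± 0.07 or 2.03-fold in CA2 (limma adjusted p = 1.85e-06). Eef2k, the kinase that phosphorylates and slows eEF2, read 7.14, 7.14 and 7.25 in the CA1 cell body layer and 7.32, 7.20 and 7.27 in the CA1 dendritic layer, ranges that overlap. In CA2 it read 7.69, 7.72 and 7.79 in the cell body layer and 7.34, 7.34 and 7.38 in the dendritic layer, which do not. Its difference was 0.09 ± 0.06 in CA1, not called (limma adjusted p = 0.26), and -0.38 ± 0.06 in CA2 (limma adjusted p = 6.16e-04). Without the arrays with oocyte transcripts the CA2 value was -0.43 and missed the threshold (limma adjusted p = 0.0583).

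Eef1a1 and Eef1a2 code for the 2 forms of the tRNA carrier eEF1A, of which eEF1A2 is the form of mature neurons and muscle. Eef1a1 read 11.57, 11.61 and 11.65 in the CA1 cell body layer and averaged 11.97 ± 0.06 (SD, n = 3) in the CA1 dendritic layer, where array 1 was lowest at 11.90. Its values were 11.49, 11.46 and 11.45 against 11.82, 11.76 and 11.84 in CA2. It was higher in the dendritic layer on every array of each field, by 0.36 ± 0.06 in CA1 (limma adjusted p = 8.47e-04) and 0.34 ± 0.06 in CA2 (limma adjusted p = 0.00131), though quantile normalization left 0.12 and no call in CA2. The gene has many processed copies in the genome whose signal the array cannot separate. Eef1a2 read 11.27, 11.22 and 11.21 in the CA1 cell body layer and 11.34, 11.22 and 11.28 in the CA1 dendritic layer, which overlap. In CA2 it read 11.27, 11.39 and 11.44 against 10.85, 11.05 and 11.00, so that all dendritic arrays were lower. The difference was 0.05 ± 0.08 in CA1 and -0.40 ± 0.08 in CA2 (limma adjusted p = 0.00182). The fit without the arrays with oocyte transcripts gave -0.64 in CA2, from 10.85 (dendritic) against 11.39 and 11.44 (cell body).

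The 3 genes of the exchange complex that reloads eEF1A were also called higher in both fields. Eef1d was higher by 0.41 in CA1 and 0.39 in CA2, and Eef1g, the structural subunit, by 0.48 and 0.24. Eef1b2 was higher by 0.34 ± 0.06 in CA2 (limma adjusted p = 0.00134), where its dendritic arrays read 10.64, 10.64 and 10.63 against 10.32, 10.27 and 10.30. In CA1 the difference of Eef1b2 was 0.18, called at an adjusted p of 0.0373 by limma and in 11 of the 25 alternative settings. Without the arrays with oocyte transcripts the CA2 differences of Eef1d and Eef1g were 0.24 and 0.17 and no longer called.

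Many mRNAs of elongation factors and some of eIF3 are known TOP mRNAs. Of 9 members with this reputation, 7 were called higher in the dendritic layer of CA1 and of CA2 (Eef1a1, Eef1b2, Eef1d, Eef1g, Eef2, Eif3f and Eif3h), Eif3e was called lower in both and Eif4b in neither. Of all genes 28.3% were called higher in CA1 and 16.2% in CA2, and of genes of like level 23.7% and 24%. The median was 0.41 in CA1 and 0.34 in CA2, beside -0.28 and -0.25 for the other 48 members. Under quantile normalization 5 of the 9 were higher and 0 lower in CA2. With the 3 arrays that carry oocyte transcripts left out, fewer of the 9, and fewer of all genes, were called higher there. Eif4b, the helicase cofactor, read 10.01, 9.93 and 9.93 against 10.03, 9.93 and 9.92 in CA1, a difference of 0.00 ± 0.06, and differed by -0.13 ± 0.06 in CA2.

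The first bases of 7 of these genes are printed as annotated in RefSeq, to show where runs of pyrimidines lie near the start. Each line gives the gene's strand from 5 bases before to 25 bases into the annotated transcript (GRCm38.p6), in the direction of transcription, and capitals mark the longest unbroken run of C and T where it reaches 6 bases. The first 5 are known TOP genes, of which Eif4b alone was called in neither field. Eif5b and Eif2b1 are initiation factors that were lower in both, though other members lower in both do hold such runs, as given below.
Eef2: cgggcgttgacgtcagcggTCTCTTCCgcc
Eef1a1: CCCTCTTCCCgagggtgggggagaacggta
Eif3f: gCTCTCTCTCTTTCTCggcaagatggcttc
Eef1b2: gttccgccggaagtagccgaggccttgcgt
Eif4b: tcggacgccgcgccaCCCCCTCgcgctgct
Eif5b: ttcccacctggccggcggctctactggaga
Eif2b1: ttccggcgccgacgagtgacgccacgcacg
These windows lie at chr10:81176626-81176655 on the plus strand (Eef2), chr9:78481700-78481729 on the minus strand (Eef1a1), chr7:108934410-108934439 on the plus strand (Eif3f), chr1:63176826-63176855 on the plus strand (Eef1b2), chr15:102073768-102073797 on the plus strand (Eif4b), chr1:37998005-37998034 on the plus strand (Eif5b) and chr5:124579107-124579136 on the minus strand (Eif2b1). Each spans the start of the gene's first exon.

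Eef2, Eef1a1 and Eif3f hold runs of 8, 10 and 15 pyrimidines in these windows, Eif4b one of 7, and Eef1b2 none longer than 4. A TOP motif stands at the first base of the mRNA. The marked runs of Eef1a1 and Eif3f cover the annotated first base, while those of Eef2 and Eif4b begin after it. The lines therefore do not show a TOP start for each of these genes. A run of at least 6 occurred in 4 of the 5 known TOP members that the promoter table holds, in 14 of 38 other members (36.8%) and in 29.4% of all 27025 genes of the table. Among members called lower in both fields, Eif4enif1, Eif2b5, Eef1e1 and Eif1ad held runs of 10, 9, 7 and 7. Others, such as Eif4a1 with 2, held none of 6. Eef1a2, called lower in CA2 alone, held one of 10. The search covered the gene's strand only, and 43 of the 57 members were found in the table. A run in this window is a description of the letters and does not show that a transcript starts at it.

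eIF3, the large complex that holds the small subunit and the cap complex together, had subunits called in both directions. So did genes of like level, of which 23.7% were higher and 48% lower in CA1, and 24% and 43.1% in CA2. Over all genes the shares were 28.3% and 18.5% in CA1, and 16.2% and 17.8% in CA2. Of the 12 measured subunits of eIF3, 2 were higher in the dendritic layer in both fields. Called lower were 6 in CA1 (Eif3a, Eif3b, Eif3c, Eif3d, Eif3e and Eif3m) and 3 in CA2 (Eif3b, Eif3c and Eif3e). Eif3f, a subunit with an MPN domain, read 9.10, 9.11 and 9.15 in the CA1 cell body layer and 10.18, 10.16 and 10.22 in the dendritic layer. In CA2 it read 8.85, 8.82 and 8.82 against 9.83, 9.67 and 9.68. The groups were far apart, with differences of 1.07 ± 0.06 or 2.09-fold in CA1 (limma adjusted p = 6.55e-07) and 0.90 ± 0.06 or 1.86-fold in CA2 (limma adjusted p = 1.83e-06). Eif3h, the other MPN subunit, was higher by 0.46 in CA1 and 0.38 in CA2; the CA2 call was lost under quantile normalization (0.20) and without the arrays with oocyte transcripts (0.29).

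Eif3b, a scaffold for smaller subunits, read 9.29, 9.19 and 9.35 in the CA2 cell body layer and 8.31, 8.57 and 8.77 in the CA2 dendritic layer, and 8.84, 8.62 and 8.70 against 8.58, 8.29 and 8.28 in CA1. Every dendritic array was lower than every cell body array of its field, by -0.73 ± 0.12 in CA2 (limma adjusted p = 7.93e-04) and -0.34 ± 0.12 in CA1 (limma adjusted p = 0.043). Without the arrays with oocyte transcripts the fit gave -1.20 in CA2, where the offset between array numbers enters. The arrays left there read 8.31 (dendritic) against 9.19 and 9.35 (cell body). The CA1 call held in 12 of 25 settings. Eif3a, the subunit that spans much of the complex, read 10.62, 10.57 and 10.57 against 10.10, 10.12 and 10.18 in CA1 and 10.79, 10.73 and 10.70 against 10.62, 10.56 and 10.58 in CA2. Its difference was -0.45 ± 0.06 in CA1 and -0.15 ± 0.06 in CA2, the latter not called (limma adjusted p = 0.0758). Eif3i, Eif3j2, Eif3k and Eif3l were called in neither field, with differences from -0.09 to 0.14 in CA1 and -0.18 to 0.06 in CA2. Eif3j2 is a near copy of another gene, so its signal may be shared. Eif3d has a second, dimmer feature, which gave -0.20 in CA1 and -0.51 in CA2 where the brighter one gave -0.32 and -0.23. The CA2 call of Eif3e, at -0.23, was absent without the arrays with oocyte transcripts. That fit gave -0.01, from 9.31 (dendritic) against 9.42 and 9.48 (cell body).

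Eif4ebp1 and Eif4ebp2, which code for eIF4E-binding proteins (4E-BPs) that block eIF4E, were called higher in the dendritic layer of each field. Eif4ebp3 was not among the members. Of the 4 cap-binding genes, Eif4e was called lower in CA1, Eif4e2 lower in CA2 and the other two in neither. Eif4ebp2, the 4E-BP that predominates in brain, read 8.98, 8.77 and 9.03 in the CA1 cell body layer against 9.94, 9.86 and 9.86 in the dendritic layer. In CA2 it read 8.71, 8.86 and 8.78 against 9.50, 9.28 and 9.23. No dendritic array overlapped the cell body arrays, and the differences were 0.96 ± 0.09 or 1.95-fold in CA1 (limma adjusted p = 1.43e-05) and 0.55 ± 0.09 or 1.47-fold in CA2 (limma adjusted p = 6.99e-04). Eif4ebp1 read 6.55, 6.58 and 6.81 against 7.16, 7.10 and 6.91 in CA1 and 6.87, 7.05 and 6.93 against 7.37, 7.30 and 7.23 in CA2. It was higher by 0.41 ± 0.10 in CA1 and by 0.35 ± 0.10 in CA2, where the call held in 19 of 25 settings. Eif4enif1, which carries eIF4E into the nucleus and to P-bodies, was lower, by -0.33 in CA1 and -0.31 in CA2.

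Eif4e itself read 10.17, 10.35 and 10.19 against 9.71, 10.00 and 9.95 in CA1 and 10.51, 10.55 and 10.56 against 10.46, 10.43 and 10.47 in CA2. It was lower in the CA1 dendritic layer by -0.35 ± 0.08 (limma adjusted p = 0.0035), a call lost under quantile normalization (-0.19), and differed by -0.09 ± 0.08 in CA2. Eif4e2, a cap-binding homologue that represses mRNAs, read 7.84, 7.78 and 7.81 against 7.75, 7.71 and 7.55 in CA1 and 7.71, 7.90 and 7.96 against 7.61, 7.52 and 7.63 in CA2. Its difference was -0.14 ± 0.09 in CA1 and -0.27 ± 0.09 in CA2 (limma adjusted p = 0.0324), called in 15 of 25 settings. Eif4e3 read 8.79, 8.86 and 8.80 against 9.10, 8.83 and 9.09 in CA1 and averaged 9.10 ± 0.14 (SD, n = 3; highest 9.26) against 9.08, 9.37 and 9.39 in CA2, with overlapping groups and no call.

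Eif4e1b, the eIF4E form of oocytes, read 6.25, 6.21 and 6.22 in the CA1 cell body layer, 6.43, 6.41 and 6.21 in the CA1 dendritic layer, 7.31, 6.38 and 6.27 in the CA2 cell body layer and 6.29, 6.99 and 7.12 in the CA2 dendritic layer. The 3 high values, 6.99 to 7.31, are on the 3 arrays on which the list of oocyte genes is high, and the other 9 arrays lie between 6.21 and 6.43. The SD of the gene was 0.57 and 0.45 in the CA2 groups and 0.02 and 0.12 in the CA1 groups. The gene was called in no comparison.

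**Figure D3:**
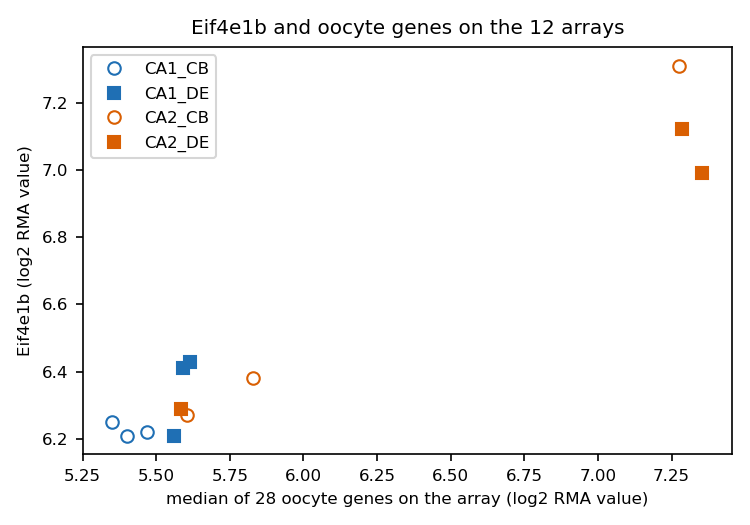
Log2 value of Eif4e1b (y axis) against the median log2 value of 28 oocyte genes (x axis) on each of the 12 arrays; circles are cell body and squares dendritic arrays, blue CA1 and orange CA2. The 3 CA2 arrays named above stand at the upper right, with Eif4e1b at 6.99 to 7.31, and the other 9 arrays lie at 6.21 to 6.43.

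Of the 6 genes named for eIF4A, eIF4G, eIF4B and eIF4H, 2 were lower in each field and 0 higher. Among genes of like level 48% were lower in CA1 and 43.1% in CA2, and among all genes 18.5% and 17.8%. Eif4a1, the helicase, read 9.89, 10.01 and 9.95 against 9.18, 9.16 and 9.25 in CA1 and 9.63, 9.68 and 9.72 against 9.30, 9.30 and 9.34 in CA2. Dendritic arrays were lower throughout, by -0.75 ± 0.06 in CA1 (limma adjusted p = 4.42e-06) and -0.36 ± 0.06 in CA2 (limma adjusted p = 7.21e-04), the CA2 call being lost without the arrays with oocyte transcripts (-0.34). Eif4g3, a full-length scaffold, read 9.48, 9.42 and 9.41 against 8.86, 8.82 and 8.98 in CA1 and 9.35, 9.36 and 9.36 against 8.77, 8.93 and 8.91 in CA2, lower by -0.55 ± 0.07 and -0.49 ± 0.07 (limma adjusted p = 1.03e-04 and 2.66e-04). Eif4g2, a scaffold that lacks the eIF4E site, read 10.03, 10.05 and 10.00 against 10.03, 10.19 and 10.25 in CA1 and 10.28, 10.19 and 10.25 against 10.40, 10.28 and 10.37 in CA2. Its groups overlapped in both fields and the differences were 0.13 ± 0.07 and 0.11 ± 0.07, with no call. Eif4h, which like Eif4b assists the helicase, differed by 0.32 ± 0.12 in CA1 (limma adjusted p = 0.0593) and -0.08 ± 0.12 in CA2. Eif4a3l1, a near copy of an exon junction factor gene, was not called.

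Of the 3 scanning factors, Eif1a and Eif1b were called lower in both fields and Eif1ax in neither. Among genes of like level 35.4% were called lower in both, and among all genes 12.2%. Eif1a, a near copy of the X-linked Eif1ax, read 8.67, 8.86 and 8.81 in the CA1 cell body layer and 7.66, 7.71 and 7.73 in the dendritic layer, and 9.14, 9.29 and 9.18 against 8.20, 7.97 and 8.08 in CA2. All dendritic arrays were lower, by -1.08 ± 0.08 or 2.11-fold in CA1 (limma adjusted p = 3.42e-06) and -1.12 ± 0.08 or 2.17-fold in CA2 (limma adjusted p = 2.46e-06). Eif1ax, which codes for nearly the same protein, read 10.12, 10.17 and 10.05 against 9.98, 10.09 and 10.04 in CA1 and 10.59, 10.54 and 10.59 against 10.41, 10.39 and 10.40 in CA2. Its differences were -0.08 ± 0.06 and -0.17 ± 0.06, neither called. Signal shared between the 2 copies cannot be told apart by the features used.

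Eif1b, a paralogue of the start codon factor eIF1, read 10.80, 10.82 and 10.79 against 10.29, 10.23 and 10.41 in CA1 and 11.63, 11.57 and 11.59 against 10.91, 10.84 and 10.89 in CA2. The layers did not overlap in either field, and the gene was lower in the dendritic layer by -0.49 ± 0.06 in CA1 (limma adjusted p = 1.18e-04) and -0.72 ± 0.06 in CA2 (limma adjusted p = 9.17e-06). Eif1b was called in every one of the 25 alternative settings in both fields, as were Eef1akmt1, Eef2, Eif1a, Eif2ak2, Eif2b3, Eif3f, Eif4ebp2 and Eif4g3.

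Of the 5 subunits of the exchange factor eIF2B, 3 were called lower in the dendritic layer of CA1 and 4 in CA2, and all 5 differences were negative in each field, with medians of -0.31 and -0.53. Among genes of like level 48% were called lower in CA1 and 43.1% in CA2, and among all genes 18.5% and 17.8%. Eif2b3, of the catalytic pair with Eif2b5, read 7.66, 7.60 and 7.67 against 6.89, 6.69 and 7.05 in CA1 and 7.80, 7.79 and 7.92 against 7.10, 7.27 and 7.21 in CA2. These groups did not overlap, and the differences were -0.77 ± 0.08 (limma adjusted p = 3.69e-05) and -0.64 ± 0.08 (limma adjusted p = 1.33e-04). Eif2b5 differed by -0.44 in CA1 and -0.38 in CA2, and Eif2b1, of the regulatory subunits, by -0.29 and -0.67. The call of Eif2b1 in CA1 (limma adjusted p = 0.042) was made in 12 of 25 settings. Eif2b2 differed by -0.31 in CA1, with overlapping groups and no call, and by -0.53 in CA2, and Eif2b4 by -0.21 and -0.26 with no call in either.

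Of eIF2 itself, Eif2s2, the beta subunit, was lower in CA1 by -0.39 ± 0.07 (limma adjusted p = 0.00153) and differed by -0.18 ± 0.07 in CA2, where it was not called. The gamma subunit has a copy on each sex chromosome. Eif2s3x, the X copy, read 9.53, 9.59 and 9.42 against 9.66, 9.45 and 9.64 in CA1 and 9.78, 9.77 and 9.83 against 9.89, 9.87 and 9.84 in CA2, with differences of 0.07 in each field and no call. Eif2s3y, the Y copy, read 8.39, 8.23 and 8.55 against 7.87, 7.87 and 8.15 in CA1, all dendritic arrays being lower, and 7.98, 8.10 and 8.18 against 8.11, 8.23 and 8.25 in CA2, where the groups overlap. The Y copy differed by -0.43 ± 0.08 in CA1 (limma adjusted p = 0.00114) and 0.11 ± 0.08 in CA2. The copies are alike in sequence and their features may share signal.

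The 4 kinases that phosphorylate eIF2 and so hold back eIF2B split into 1 that was higher and 3 with negative differences. Eif2ak2 (PKR), which is activated by double-stranded RNA, read 5.37, 5.27 and 5.28 in the CA1 cell body layer and 6.68, 6.84 and 6.92 in the CA1 dendritic layer. In CA2 it read 5.80, 5.67 and 5.63 against 7.64, 7.58 and 7.43. Its dendritic arrays stood apart from all cell body arrays, by 1.51 ± 0.09 in CA1 (limma adjusted p = 5.45e-07) and 1.85 ± 0.09 in CA2 (limma adjusted p = 1.21e-07), the largest rise among the members in each field. On 5 of the 6 cell body arrays the gene lay below the median feature, 5.76, so no fold is given, and RMA can narrow differences from such dim values.

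Eif2ak1 (HRI), activated when heme is short, read 8.74, 8.69 and 8.68 against 8.17, 8.28 and 8.44 in CA1 and 8.98 to 9.18 against 8.51, 8.64 and 8.54 in CA2, lower by -0.41 ± 0.08 and -0.49 ± 0.08. Eif2ak3 (PERK), the kinase of the endoplasmic reticulum, read 7.49, 7.36 and 7.39 against 7.19, 6.94 and 7.15 in CA1 and 7.47, 7.60 and 7.60 against 7.24, 7.16 and 7.19 in CA2, lower by -0.32 ± 0.08 and -0.36 ± 0.08. Eif2ak4 (GCN2), activated by uncharged tRNA, read 7.43, 7.36 and 7.32 against 7.13, 7.16 and 7.26 in CA1 and 7.17, 7.30 and 7.20 against 7.09, 7.11 and 6.94 in CA2. The groups of Eif2ak4 did not overlap, yet its differences of -0.19 ± 0.07 and -0.18 ± 0.07 missed the threshold (limma adjusted p = 0.0603 and 0.0969).

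Of the 4 late factors, Eif5b and Eif5a were called lower in both fields, and Eif6 and Eif5a2 in CA2 alone. Calls of lower in both fields were made for 35.4% of genes of like level and 12.2% of all genes. Eif5b, the GTPase that joins the ribosomal subunits, read 10.48, 10.58 and 10.43 against 9.52, 9.52 and 9.69 in CA1 and 10.72, 10.69 and 10.71 against 10.30, 10.35 and 10.30 in CA2. The layers did not overlap, and the gene was lower by -0.92 ± 0.07 or 1.89-fold in CA1 (limma adjusted p = 3.71e-06) and by -0.39 ± 0.07 or 1.31-fold in CA2 (limma adjusted p = 0.00144), the CA2 call being lost without the arrays with oocyte transcripts (-0.35). Eif6, which keeps the large subunit apart, differed by -0.09 in CA1 and -0.28 in CA2.

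Eif5a, whose product carries the modified residue hypusine and helps peptide bonds form, read 9.23, 9.24 and 9.21 against 9.06, 8.78 and 9.02 in CA1 and 9.31, 9.43 and 9.41 against 8.95, 9.14 and 9.02 in CA2. It was lower by -0.27 ± 0.09 in CA1 (limma adjusted p = 0.0274, 15 of 25 settings) and -0.35 ± 0.09 in CA2 (limma adjusted p = 0.0106). The CA1 value was -0.16, not called, without dendritic array 2 and -0.18, not called, without all arrays numbered 2. Its paralogue Eif5a2 read 8.63, 8.33 and 8.40 against 8.46, 8.33 and 8.30 in CA1, which overlap, and 8.75, 8.78 and 8.92 against 8.38, 8.53 and 8.29 in CA2, which do not. The difference of Eif5a2 was -0.09 ± 0.10 in CA1 and -0.42 ± 0.10 in CA2 (limma adjusted p = 0.00643). The fit without the arrays with oocyte transcripts gave -0.68 in CA2, from 8.38 (dendritic) against 8.78 and 8.92 (cell body).

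Among members that carry a factor's symbol but another role, Eef1akmt1 had the most negative layer difference of all 57 members in both fields. This lysine methyltransferase, which modifies eEF1A, read 8.75, 8.82 and 8.59 in the CA1 cell body layer against 7.63, 7.39 and 7.28 in the dendritic layer, and averaged 9.16 ± 0.14 (SD, n = 3; highest 9.28) against 8.18, 7.73 and 7.94 in CA2. Each dendritic array was below each cell body array, by -1.29 ± 0.11 or 2.44-fold in CA1 (limma adjusted p = 5.53e-06) and -1.21 ± 0.11 or 2.31-fold in CA2 (limma adjusted p = 8.56e-06). Eef1e1, a subunit of the multi-synthetase complex, was lower by -0.59 and -0.42, Eif2a, an initiator tRNA carrier outside the eIF2 complex, by -0.51 and -0.24, and Eif1ad, which assists assembly of the small subunit, by -0.29 and -0.49. Eif2d differed by -0.17 in CA1 and -0.16 in CA2, called in CA1 only and in 9 of 25 settings. Eif2c5 is a noncoding gene named after the argonaute family, the dimmest member at 4.49, and its CA1 call rests on dendritic arrays 1 and 2, at 4.96 and 4.98, where array 3 read 4.42 like the cell body arrays (4.39 to 4.53).

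**Figure D4:**
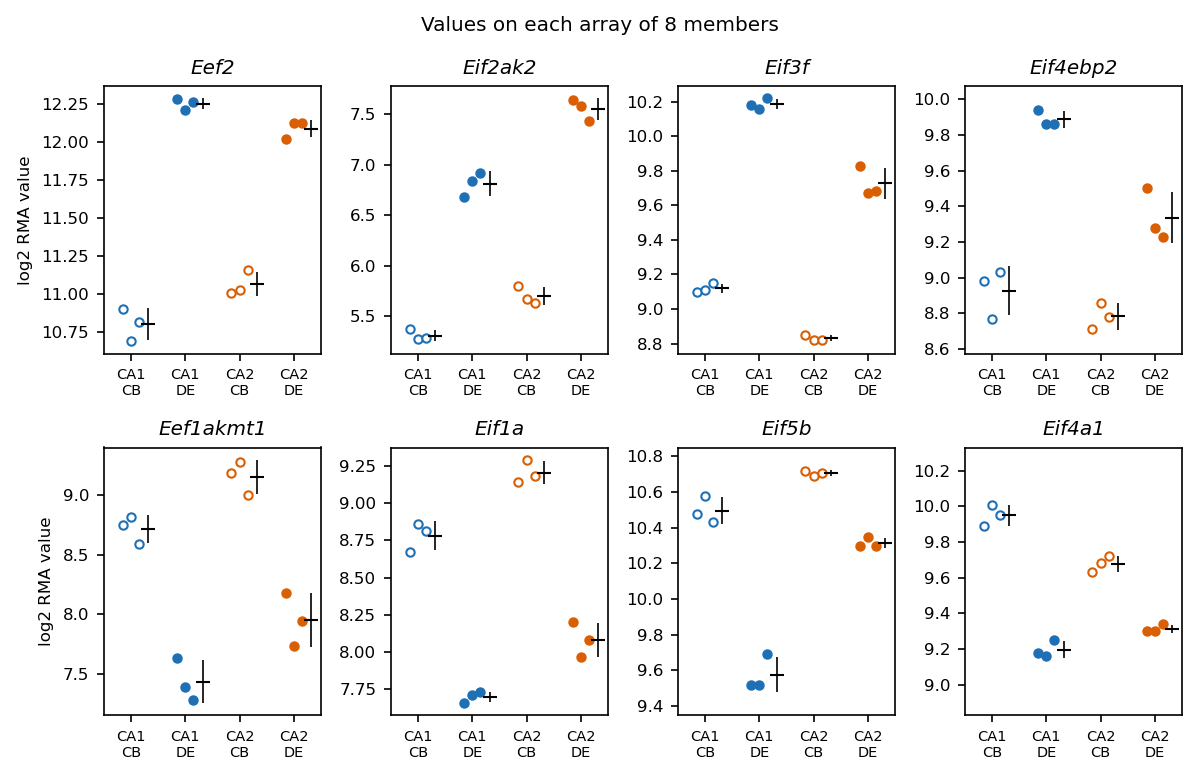
Log2 RMA value on each of the 12 arrays (points, arrays 1 to 3 from left to right in each group) of 8 members, with the group mean ± SD (black); open points are cell body (CB) and filled points dendritic (DE) arrays, blue CA1 and orange CA2. In the upper row every dendritic array lies above every cell body array of its field, and in the lower row below; y axes differ between panels.

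Spread was small beside the largest differences but not beside all of them. For Eif2b2 in CA1 the SD was 0.25 in the cell body and 0.28 in the dendritic layer, beside a difference of -0.31. The median SD of a member over the 3 arrays of a group was 0.06 in the CA1 cell body layer, 0.09 in the CA1 dendritic layer, 0.07 in the CA2 cell body layer and 0.08 in the CA2 dendritic layer. Over all genes it was 0.08, 0.13, 0.07 and 0.09, and over genes of like level 0.07, 0.12, 0.06 and 0.09.

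Whether a layer difference was unequal in the 2 fields was tested directly as the CA2 minus the CA1 difference. A total of 8 members passed, or 14%, where 11.6% of all genes did, and 5 were more positive in CA2 and 3 more negative, where 4.81% and 6.81% of all genes were. Among genes of like level the share was 22.7%, and 3 of the 29 members in that range passed. Eef2k (-0.47, limma adjusted p = 0.00845), Eif5b (0.53, limma adjusted p = 0.00962) and Eif2s3y (0.54, limma adjusted p = 0.0128) had the smallest p, followed by Eif4a1 (0.39), Eef2 (-0.43), Eef1a2 (-0.45), Eif3m (0.42) and Eif3a (0.30). Eif5b and Eif4a1 were called lower in each field, by more in CA1. Eif3a, Eif3m and Eif2s3y were called lower in CA1 and not called in CA2. Eef2 was higher by more in CA1, and Eef1a2 and Eef2k were called lower in CA2 and not called in CA1, with the difference between the fields tested for both.

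These 8 calls are fragile, as are the calls of this test over all genes. None held in all alternative settings, and 0, 0 and 2 members passed when arrays numbered 1, 2 or 3 were left out. Of all 30142 genes, 1009, 697 and 1409 passed in these settings, where 3504 did with all arrays. Leaving out a single array lowered the count to between 3 and 5 for CA1 cell body arrays 2 and 3, CA1 dendritic array 1, CA2 cell body arrays 2 and 3 and CA2 dendritic arrays 1 and 3. In those settings between 1704 and 2837 of all genes passed. Without the arrays with oocyte transcripts none of the 8 was called, and calls over all genes fell too. The split into 5 higher and 3 lower became 2 higher and 8 lower under quantile normalization, with 5 of the 8 still among the 10 called. Eif5b was called in 21 of its 24 settings, Eef2k and Eif2s3y in 20, Eif4a1 in 17, Eef1a2 in 13, Eef2 in 12, Eif3m in 8 and Eif3a in 6.

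**Figure D5:**
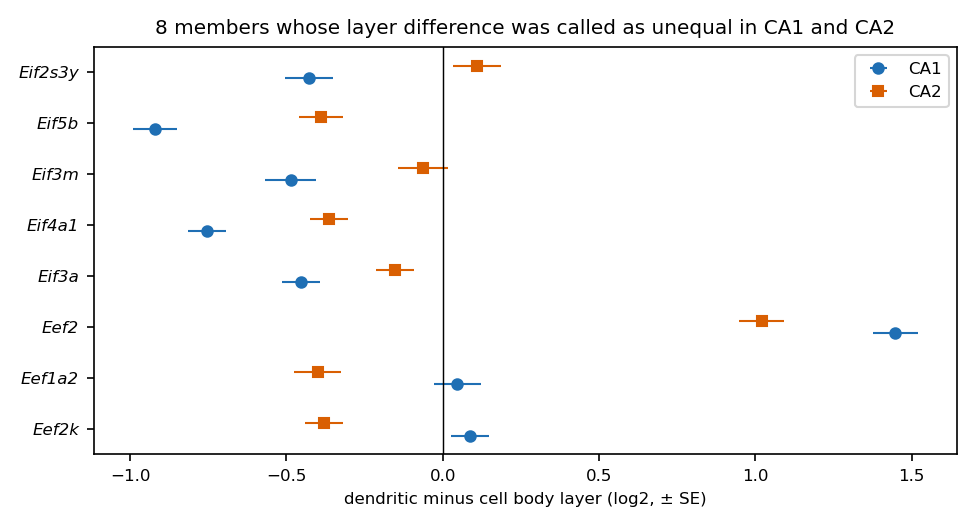
Dendritic minus cell body difference (x axis, log2, ± 1 SE) in CA1 (blue circles) and CA2 (orange squares) of the 8 members called in the test of the difference between fields. Eif5b stands at -0.92 in CA1 and -0.39 in CA2, and Eef2k at 0.09 and -0.38.

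CA2 was also set against CA1 within each layer. All CA1 arrays carry run number 938 and all CA2 arrays 907, so field and run cannot be told apart here. In the cell body layer 25 members passed, where 21.1% of all genes did, 18 higher in CA2 and 7 lower (10.6% and 10.5% of all genes). Of genes of like level 43.3% passed, 22.9% higher and 20.4% lower, and of the 29 members in that range 9 were higher and 5 lower. In the dendritic layer 25 passed, where 30.2% of all genes did, 17 higher and 8 lower (11.6% and 18.6% of all genes), and of genes of like level 48.6% passed, 29.2% higher and 19.4% lower, beside 12 of the 29 members (41.4%), 8 higher and 4 lower. Centring each array on its median moved the median over all genes from 0.02 to 0.12 in the cell body layer and from -0.11 to -0.00 in the dendritic layer, and the members' split to 26 higher and 3 lower and to 26 higher and 4 lower. The split of all genes moved the same way, from 3205 higher and 3162 lower to 6273 and 2169 in the cell body layer. In the dendritic layer it moved from 3487 higher and 5618 lower to 4782 and 2018. Quantile normalization gave 27 members higher and 7 lower in the cell body layer and 17 higher and 7 lower in the dendritic layer. Of all genes it gave 5722 higher and 2408 lower, and 3737 higher and 2886 lower. Only 10 members passed in the dendritic layer without the arrays with oocyte transcripts.

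Eif1b had the smallest p in the cell body layer, its CA2 arrays at 11.57 to 11.63 standing above the CA1 arrays at 10.79 to 10.82, a difference of 0.79 ± 0.06 or 1.73-fold (limma adjusted p = 1.57e-05). It was higher in the CA2 dendritic layer too, by 0.57 ± 0.06 (limma adjusted p = 2.66e-04). Eef2k was higher in the CA2 cell body layer by 0.56 ± 0.06 (limma adjusted p = 1.38e-04) and differed by 0.09 ± 0.06 in the dendritic layer. Eif1ax was higher by 0.46 ± 0.06 in the cell body layer (limma adjusted p = 5.51e-04) and by 0.36 in the dendritic layer, so that Eif1a (0.42 and 0.38), Eif1ax and Eif1b were each called higher in CA2 in both layers.

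In the dendritic layer Eif5b was higher in CA2 by 0.74 ± 0.07 or 1.67-fold (limma adjusted p = 1.42e-04), its CA2 arrays at 10.30 to 10.35 and its CA1 arrays at 9.52 to 9.69. Eef1e1 read 9.27, 9.43 and 9.37 in the CA1 cell body layer, 8.81, 8.54 and 8.95 in the CA1 dendritic layer, 9.93, 10.04 and 10.09 in the CA2 cell body layer and 9.56, 9.56 and 9.67 in the CA2 dendritic layer. The CA2 arrays of Eef1e1 were above the CA1 arrays in each layer, by 0.83 ± 0.09 in the dendritic layer (limma adjusted p = 2.44e-04) and 0.66 ± 0.09 in the cell body layer (limma adjusted p = 5.62e-04). Eif3f, Eif3i and Eif3k were called lower in CA2 in both layers, by -0.29, -0.34 and -0.28 in the cell body and -0.46, -0.45 and -0.36 in the dendritic layer, and Eif4ebp2 in the dendritic layer only (-0.55). The difference of Eif4ebp2 between fields in its layer change, -0.41, was not called (limma adjusted p = 0.0669). Calls made in all 25 settings were 6 in the cell body layer (Eef1e1, Eef2k, Eif1ad, Eif1ax, Eif1b and Eif2b1) and 6 in the dendritic layer (Eef1e1, Eif1b, Eif2ak2, Eif3a, Eif4e and Eif5b).

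The neighbours of these factors in the pathway were counted from 3 lists with 48 measured genes. Between the layers 6 were higher in the dendritic layer of CA1 and 21 lower, and 4 higher and 20 lower in CA2, with a median of -0.13 in each. Of all genes 28.3% were higher and 18.5% lower in CA1 and 16.2% and 17.8% in CA2, and of genes at the level of the 57 factors 48% were lower in CA1 and 43.1% in CA2. Fewer of the 48, and fewer of all genes, were called in CA2 without the arrays with oocyte transcripts. Of 25 partners of the factors, Pabpc1, the poly(A)-binding protein whose mRNA is itself a TOP mRNA, was higher by 0.88 in CA1 and 0.75 in CA2 (limma adjusted p = 1.16e-06 and 3.21e-06). Mcts1, a partner in reinitiation, was lower by -1.08 and -0.87, Abce1, the ribosome recycling ATPase, by -1.12 and -0.86, and Gspt2, a release factor, by -0.95 and -0.90. Pdcd4, an inhibitor of eIF4A, differed by -0.80 in CA1 and -0.05 in CA2. In all, 4 partners were higher and 16 lower in CA1, and 2 higher and 12 lower in CA2.

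Of 12 genes that signal to eIF4E through mTORC1 and MNK, 1 was higher and 3 lower in CA1, and 0 higher and 6 lower in CA2. For this list and the next, the shares over all genes were 28.3% higher and 18.5% lower in CA1, and 16.2% and 17.8% in CA2. Rheb, the GTPase that activates mTORC1, was lower by -0.58 in CA1 and -0.56 in CA2, and Mtor by -0.24 and -0.48. Mknk2, an eIF4E kinase, was higher in CA1 by 0.43 and differed by 0.06 in CA2. Of 11 genes of the integrated stress response downstream of the eIF2 kinases, 1 was higher and 2 lower in CA1 and 2 higher and 2 lower in CA2. Asns, asparagine synthetase, was lower by -1.16 and -1.37 (limma adjusted p = 1.14e-05 and 3.46e-06), Ddit3 was higher by 0.30 and 0.43, and Atf4, their regulator, differed by -0.07 and -0.09 with no call.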

How the data were processed

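Total RNA was amplified (Nugen WT-Ovation Pico) and hybridised to 12 arrays, 3 for each kind of piece. The deposited values are log2 intensities that the authors summarised per feature with RMA, according to the submitters' processing notes. Which program and version they ran, and whether they normalized both runs as 1 set, is not given in the sources used here. RMA narrows differences between dim features. Of 72688 features, 30604 had 1 symbol in the platform annotation, and the brightest feature of each symbol gave 30142 genes.

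limma 3.58.1 (lmFit, eBayes; R 4.3.3) was fitted to all genes and arrays, with a mean for each of the 4 groups and a block for the replicate number. Tests were two-sided, with Benjamini-Hochberg adjustment across all 30142 genes and a threshold of 0.05 on the adjusted p. The script was tested on simulated data. The protocols tie 4 pieces to each of 3 mice, which is why the number was kept as a block; only 1 of the 18 same-numbered pairs correlated above 0.1 in its deviations from the group mean (lowest -0.346, highest 0.132). Alternatives were no block, other scalings, feature choices and fits, and arrays left out. Members, gene lists and the rule for values by array (the 4 largest rises and falls of each layer comparison, the 3 smallest p of the others, and paralogue sets) were chosen with earlier results of these data known. Start windows are from a RefSeq promoter table (GRCm38.p6), matched by symbol. The number of arrays limits the precision.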

Additional observations from a re-analysis of the deposited data

Results flagged for a closer look

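The layer difference of 8 members was unequal in CA1 and CA2 by the test of that difference, CA2 minus CA1, with limma. It was more negative in CA2 for Eef1a2 (-0.45), Eef2 (-0.43) and Eef2k (-0.47). It was more positive in CA2 for Eif2s3y (0.54), Eif3a (0.30), Eif3m (0.42), Eif4a1 (0.39) and Eif5b (0.53). The levels of each field come from a run of its own. Only a run shift equal in both layers would cancel from these values, and whether it was equal was not tested. The markers of other cells moved with the layers in both fields, microglia by a median of 1.91 in CA1 and 1.39 in CA2 and endothelium by 2.16 and 2.20, and their part in these 8 values was not tested.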

How the results depend on the processing

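Over 25 alternatives (24 for the difference between fields), 0 members reversed a called direction in any of the 5 comparisons. Of the 37 members called between the layers of CA1, 26 were called in every alternative, and of the 35 in CA2, 14; of the 8 calls of the difference between fields, 0 were. Without the replicate block, which the pairing check does not require, the members called were 38 in CA1, 38 in CA2, 9 for the difference between fields, 30 for CA2 against CA1 in the cell body layer and 27 in the dendritic layer, and the other translation genes 27, 24, 7, 14 and 29. Leaving out the 3 arrays with oocyte transcripts gave 21 members and 9 other translation genes in the CA2 layers (35 and 24 with all arrays), 1 and 1 for the difference between fields (8 and 5), 8 other translation genes in the cell body layer (13), and 10 and 5 in the dendritic layer (25 and 28). It leaves fewer arrays, calls over all genes fell in each of these comparisons too, and the cause of each change was not tested.

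For the difference between fields, testing every feature gave 4 members and 3 other translation genes, quantile normalization 8 of the latter and leaving out dim genes 9. For CA2 against CA1, the other translation genes called in the cell body layer were 22 under quantile normalization, 20 under median centring and 22 with array weights, and fitting the dendritic groups alone gave 11 members and 12 other translation genes. With 1 array or number left out, members called ranged from 28 to 37 (CA1 layers), 25 to 37 (CA2 layers), 0 to 9 (difference between fields), 8 to 29 (cell body layer) and 13 to 25 (dendritic layer), and other translation genes from 19 to 27, 16 to 25, 0 to 11, 6 to 16 and 12 to 28. For members in the cell body layer the low counts were 14, 11 and 8 without the arrays numbered 1, 2 or 3 and 16 without CA2 cell body array 3. Of all genes 4147, 3557, 3451 and 4334 were called there, against 6367 with all arrays. In the dendritic layer the low counts were 13 and 15 without the arrays numbered 2 or 3, beside 3663 and 6076 of all genes, against 9105 with all arrays. Array signal near background limits Eif2c5 and the cell body values of Eif2ak2 in both fields.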

Other observations

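The rule takes symbols from the platform annotation, and 5 further genes carry a factor's symbol only in the current RefSeq table. Eef2kmt, a methyltransferase of eEF2, was called higher in the CA1 dendritic layer by 0.34 (limma adjusted p = 0.00238) and differed by 0.13 in CA2. Eef1akmt2, a methyltransferase of eEF1A like Eef1akmt1, was called lower in CA1 by -0.50 (limma adjusted p = 0.00726) and differed by -0.12 in CA2. Eif4a3l2 was called lower in CA1 by -0.41, and Eef1akmt3 and Eef1aknmt were called in neither field.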
